A study of Mus musculus with 4 samples.

Results

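S100 proteins are small, mostly dimeric proteins of vertebrates that bind calcium through paired EF-hand loops. Inside the cell many of them change shape with calcium and then bind partners such as annexins and myosin, and several are also released and bind receptors on other cells. Their genes lie mostly in 1 cluster, and each tissue uses its own set: S100a8 and S100a9 are known from granulocytes and stressed epithelia, S100a14 and S100a16 from epithelia, S100a4 and S100a6 from connective tissue cells, and S100a1 from muscle.

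The 10 S100 genes described here (S100a1, S100a4, S100a6, S100a8, S100a9, S100a10, S100a11, S100a13, S100a14 and S100a16) were given as a list of names and were found by symbol among the 22073 genes of the deposited table, which holds 17 S100 family genes. Transcripts were measured in the right testis of 4 adult male mice of the outbred KM strain. In the 2 hemicastrated mice the left testis had been taken out before puberty, and the 2 control mice had sham surgery. No genotype, transgene or age is given. Nothing in the labels says that mice were pooled, although the protocols speak of 3 mice per group and the design text of 2. The label for the molecule reads genomic DNA, but the protocol is one for RNA. Values are FPKM, fragments normalised for transcript length and library size, so levels of different genes can be compared per length. Read depth is unknown. Error was taken from the spread of the 2 libraries in each group, moderated towards a variance trend fitted over all compared genes. With 2 libraries per group, an exact two-sided permutation test gives no p under 0.333. Hemicastrated and control libraries are numbered after their titles.

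Germ cell transcripts mark the tissue as testis, since Prm1, a protamine of late spermatids, stood at 5802 and 5995 FPKM in control testes and at 5732 and 6458 FPKM in hemicastrated testes. The epididymis marker Crisp1 was also present in the control libraries, at 545 and 786 FPKM, against 0.045 and 0.039 FPKM in the hemicastrated ones. Lcn5 and Lcn8, of the same marker list, were listed at 0 in all 4 libraries. The share of other tissue in each sample was not tested. The summed FPKM of all genes lay between 343105 and 353135 in the 4 libraries. The 11343 genes averaging 1 FPKM or more were compared between the groups with limma on log2(FPKM + 1), and group differences are given on that scale (hemicastrated minus control), where they are smaller than the log2 ratio of the FPKM, most of all for low genes. A gene was called where its Benjamini-Hochberg adjusted p was under 0.05.

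Of the 10 S100 genes, 3 were lower in the hemicastrated testes and the rest were not called. S100a8 and S100a14 were near or at 0 in both hemicastrated testes, and S100a16 was at 31.2% of its control mean. The other 6 tested members had negative differences that did not pass the threshold, and S100a9 was too low to be tested. No member was called higher. Of the 11343 tested genes, 1.19% were called lower and 0.106% higher by limma, against 3 and 0 of the 9 tested members. At an unadjusted p under 0.05, 6 members were lower and 0 higher, beside 739 and 452 of the 11343 genes. S100a4, S100a8 and S100a14 had hemicastrated means under 1 FPKM and passed the filter through their control values, so these counts cannot serve as support. The median difference of the 9 tested members was -0.59 on the log2(FPKM + 1) scale, beside -0.03 for all tested genes. Without a filter it was -0.56 over all 10 members and -0.02 over the 18587 genes above 0 in any library. In whole tissue, fewer cells of a type and less RNA per cell cannot be told apart.

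**Figure D1:**
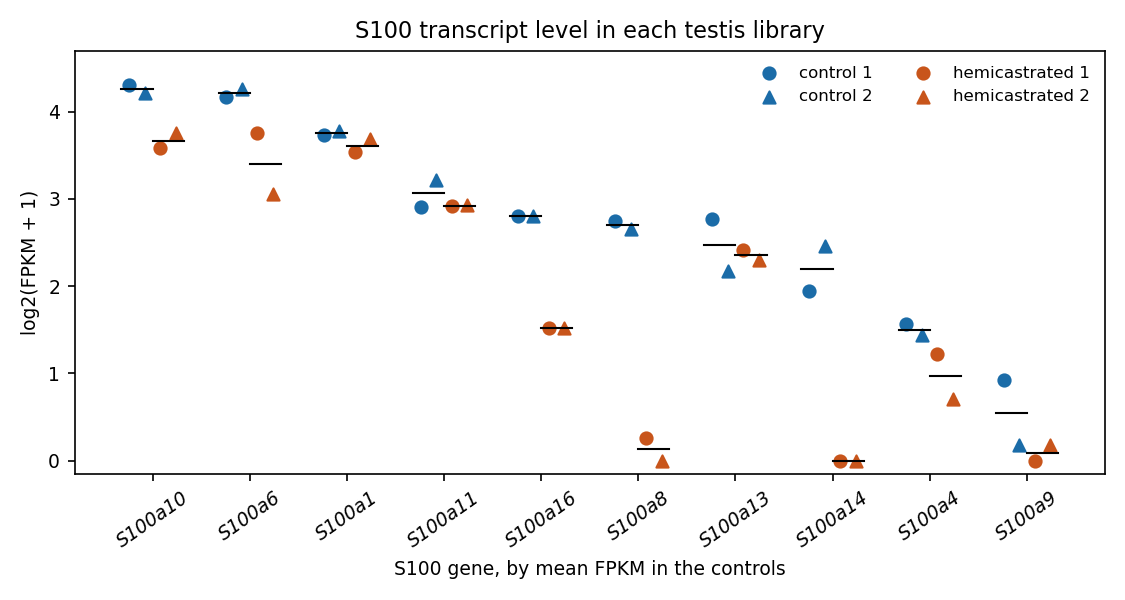
Level of each S100 gene in each library on the log2(FPKM + 1) axis, with genes ordered by their control mean. Circles and triangles are the libraries numbered 1 and 2, blue for control and orange for hemicastrated, and the black lines are group means. S100a8 and S100a14 drop to or near 0 in both hemicastrated testes, while S100a1, S100a11 and S100a13 lie close together in both groups.

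In the control testis the S100 genes spanned a wide range of levels. S100a10 and S100a6 were highest, at 18.2 ± 0.9 and 17.6 ± 0.8 FPKM (SD, n = 2 each), and their libraries overlapped. S100a1 followed at 12.5 ± 0.3 FPKM, S100a11 at 7.42 ± 1.27, S100a16 at 5.98 ± 0.03 and S100a8 at 5.53 ± 0.30. S100a13 (4.66 ± 1.63 FPKM) overlapped with S100a8 above it and with S100a14 below it (3.67 ± 1.17 FPKM). S100a4 at 1.83 ± 0.17 FPKM and S100a9 at 0.513 ± 0.539 FPKM were lowest, and each lay apart from the gene above it. These are moderate levels for testis: S100a10 ranked 3798th by mean FPKM in the table, and S100a9 ranked 14045th.

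After hemicastration the order changed in its middle and at its lower end. S100a10 (11.8 ± 1.1 FPKM), S100a1 (11.2 ± 0.9) and S100a6 (9.90 ± 3.64) overlapped from one to the next at the top. S100a11 and S100a13 came next, at 6.59 ± 0.05 and 4.13 ± 0.31 FPKM. S100a16 at 1.87 FPKM now stood below S100a13. S100a4 (0.982 ± 0.493 FPKM) came next and lay above S100a8 (0.0961 ± 0.136) and S100a9 (0.0679 ± 0.096), which overlapped, and S100a14 was last, listed at 0. Summed over the 10 genes, the level was 77.9 and 77.8 FPKM in control testes and 48.4 and 44.9 FPKM in hemicastrated testes. The trio S100a1, S100a6 and S100a10 supplied 61.8% and 62.2% of that sum in control testes and 70.4% and 70.7% after hemicastration.

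S100a8 and S100a9 encode the subunits of calprotectin, a calcium- and zinc-binding antimicrobial complex. S100a8 (ENSMUSG00000056054, GRCm38 chromosome 3, 90668978 to 90670035) was at 5.74 and 5.32 FPKM in control testes. It was at 0.192 FPKM in hemicastrated 1 and listed at 0 in hemicastrated 2. The control libraries lay close together, and both were far above either hemicastrated library. The difference on the log2(FPKM + 1) scale was -2.58 (SE 0.15, limma adjusted p = 0.000613). With a pseudocount of 0.1 it was -5.04, and S100a8 was called under all 10 alternatives in which it was tested. S100a9 (chromosome 3, 90692632 to 90695721) was at 0.894 and 0.132 FPKM in control testes. In the hemicastrated libraries it was listed at 0 in the first and at 0.136 FPKM in the second. Its groups overlapped, and with no filter on low values its difference was -0.46 (SE 0.26, limma adjusted p = 0.646). S100a8 thus stood well above its partner gene in both control testes, and whether the 2 genes differ in their response was not tested.

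Most granulocyte markers were near or at 0 in both groups. Of 15 neutrophil markers, 2 were tested, with 1 called lower and 0 higher, beside 1.19% and 0.106% of all tested genes. The gene called lower passed the filter through its control values, so this count cannot serve as support. Ly6g, Cxcr2, Mmp8 and Ctsg, which mark granulocytes, were listed at 0 in all 4 libraries. Without Ltf and Lcn2, a pair set aside after their values were seen, the summed level of the other 13 genes was 1.95 and 1.72 FPKM in control testes and 1.32 and 1.47 FPKM in hemicastrated testes, and no single value exceeded 0.834 FPKM. The called gene was Ltf (lactoferrin, an iron-binding protein of granules and of glandular secretions), at 16.4 and 11.7 FPKM in control testes and listed at 0 in both hemicastrated testes (limma adjusted p = 0.000171). Lcn2, an iron-carrier binding lipocalin, was at 157 and 266 FPKM in control testes and at 213 and 242 FPKM after hemicastration. It set the summed level of the whole list, which was 176 and 279 FPKM in control testes and 214 and 244 FPKM in hemicastrated testes.

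S100a14 and S100a16 are neighbouring genes, and both were called. S100a14 (ENSMUSG00000042306, chromosome 3, 90526856 to 90528837), known from epithelia, was at 2.84 and 4.49 FPKM in control testes and listed at 0 in both hemicastrated testes. The limma difference was -2.20 on the log2(FPKM + 1) scale (SE 0.20, adjusted p = 0.00423), and no fold is given against a group at 0. It was called under all 10 alternatives in which it was tested. S100a16 (ENSMUSG00000074457, chromosome 3, 90537254 to 90543151), a widely expressed member, was at 6.004 and 5.961 FPKM in control testes and at 1.87 and 1.86 FPKM in hemicastrated testes. The libraries of a group were nearly equal and the groups lay far apart. Its log2(FPKM + 1) difference was -1.28 (SE 0.12, limma adjusted p = 0.0053). Without control 1 the adjusted p was 0.0762 and without control 2 it was 0.0829, with the difference at -1.28 and -1.29, and over its alternatives the adjusted p ran from 0.00281 to 0.0829.

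**Figure D2:**
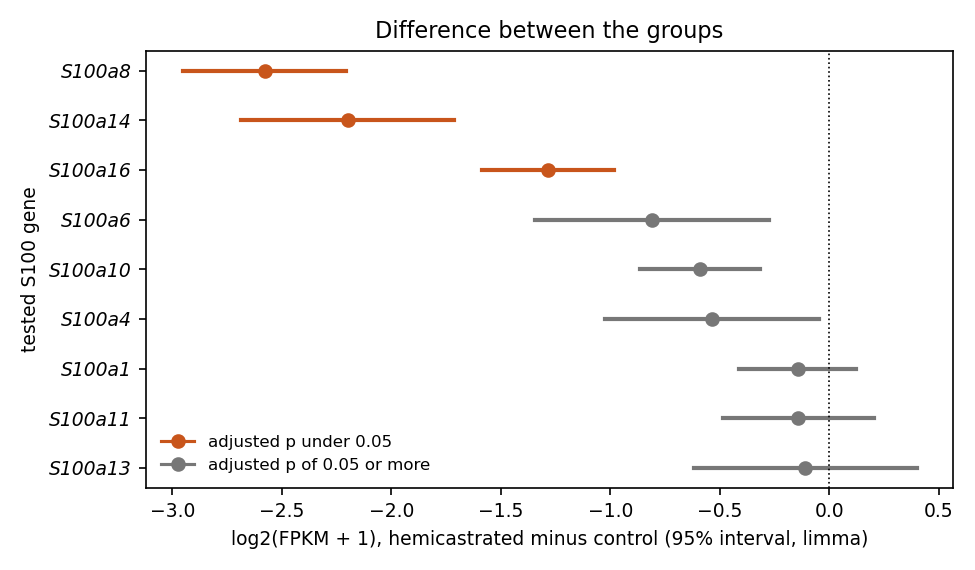
Difference between the groups for the 9 tested S100 genes, hemicastrated minus control in log2(FPKM + 1), with the 95% interval from limma. Orange marks the called genes S100a8, S100a14 and S100a16, whose intervals end at or below -0.98, and grey the 6 that were not called, of which S100a1, S100a11 and S100a13 have intervals that include 0.

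S100a10 and S100a11 are the annexin partners of the family. S100a10, whose protein has lost calcium binding and forms a stable complex with annexin A2, was at 18.9 and 17.5 FPKM in control testes and at 10.98 and 12.52 FPKM in hemicastrated testes. The groups did not overlap, but the log2(FPKM + 1) difference of -0.59 (SE 0.11) missed the threshold (limma adjusted p = 0.0986; 0.0829 to 0.517 over the alternatives). Anxa2 itself was at 41.0 and 38.0 FPKM against 34.2 and 32.9, and its log2(FPKM + 1) difference of -0.23 was not called (limma adjusted p = 0.461). There were 0.460 and 0.461 FPKM of S100a10 for each FPKM of Anxa2 in control testes and 0.321 and 0.381 in hemicastrated testes. This ratio was lower in both hemicastrated testes than in both controls, and the difference in the ratio was not tested.

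S100a11, whose protein binds annexin A1, was at 6.52 and 8.32 FPKM in control testes and at 6.55 and 6.62 FPKM in hemicastrated testes. Its groups overlapped, with a log2(FPKM + 1) difference of -0.14 and a 95% interval from -0.48 to 0.20. Of the 31-base words of its transcripts, 48.9% also occur in other annotated genes, mostly in Gm12854, so its level is uncertain. Anxa1 was at 3.54 and 4.47 FPKM in control testes and 1.77 and 1.09 FPKM after hemicastration (log2(FPKM + 1) difference -1.05, limma adjusted p = 0.0794). The FPKM ratio of S100a11 to Anxa1 was accordingly 1.84 and 1.86 in control testes and 3.71 and 6.10 in hemicastrated testes.

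Of the tested members, S100a6 and S100a4 lay furthest apart between the hemicastrated mice on the log2(FPKM + 1) scale. S100a6 (calcyclin), whose protein binds annexins and the calcyclin-binding protein Cacybp, was at 17.0 and 18.1 FPKM in control testes and at 12.5 and 7.33 FPKM in hemicastrated testes. Hemicastrated 2 was far below hemicastrated 1, and both were below the controls. The log2(FPKM + 1) difference was -0.81 (SE 0.22, limma adjusted p = 0.245). Without hemicastrated 1 it was -1.16 and called (adjusted p = 0.010), and without hemicastrated 2 it was -0.46 (adjusted p = 0.239), and the adjusted p ranged up to 0.686 over the alternatives. Cacybp was higher in both hemicastrated testes, at 12.0 and 14.3 FPKM in control testes against 15.6 and 15.1, and was not called.

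S100a4, whose protein binds nonmuscle myosin and which is used as a fibroblast marker, was at 1.95 and 1.72 FPKM in control testes and at 1.33 and 0.633 FPKM in hemicastrated testes. Hemicastrated 2 was again the lowest, and the groups did not overlap. The log2(FPKM + 1) difference was -0.54 (SE 0.20, limma adjusted p = 0.421), and it was -0.79 without hemicastrated 1 and -0.28 without hemicastrated 2. The overlapping gene Gm42674 holds 49.2% of the 31-base words of S100a4, so the level of S100a4 is uncertain too. Gm42674 itself was listed at 6.62e-06 FPKM in hemicastrated 1 and lower still in the other libraries. Dcn, the matrix proteoglycan with the highest level in the fibroblast list, showed the same order of libraries, at 26.5 and 25.4 FPKM in control testes and 17.79 and 10.02 FPKM in hemicastrated 1 and 2. The groups overlapped in 3 of the 10 fibroblast and matrix genes, picked out after their values were seen: Pdgfra, Fbln1 and Mfap5, with differences of 0.002, -0.26 and 0.24.

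S100a1 and S100a13 were close to their control levels. S100a1, whose protein regulates the calcium pump and calcium release channels of muscle, was at 12.3 and 12.7 FPKM in control testes and at 10.6 and 11.9 FPKM in hemicastrated testes. The groups did not overlap, yet the log2(FPKM + 1) difference was small at -0.14 (95% interval -0.41 to 0.12, limma adjusted p = 0.718). S100a13, whose protein takes part in the release of Fgf1 and Il1a products, was at 5.81 and 3.50 FPKM in control testes and at 4.35 and 3.91 FPKM in hemicastrated testes. The control libraries enclosed the hemicastrated ones, and the log2(FPKM + 1) difference was -0.11 (95% interval -0.62 to 0.40). It was 0.19 without control 1 and -0.41 without control 2, so its direction rests on which control is used. These intervals leave room for moderate changes in either direction in S100a13.

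Both hemicastrated libraries lay below both controls in 7 of the 10 members, all 7 of them tested: S100a1, S100a4, S100a6, S100a8, S100a10, S100a14 and S100a16. The same was seen in 24.8% of all tested genes, and the opposite order, seen in 0 members, in 16.3%. S100a4, S100a8 and S100a14 passed the filter through their control values, so the count of members cannot serve as support.

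Called and uncalled S100 genes were interspersed along the chromosome. By GENCODE positions, 14 S100 genes of the table lie on chromosome 3, in 2 blocks: from S100a1 to S100a9, and 2824766 bases further on, S100a11 and S100a10. S100a13 and S100a14, with 2274 bases between them, had differences of -0.11 and -2.20. S100a14 and S100a16 are 8416 bases apart and were both called. S100a8 is 22596 bases from S100a9. Of the other S100 genes in the first block, S100a2, S100a5 and S100a7a were listed at 0 in all 4 libraries, and S100a3 did not exceed 0.181 FPKM. Neighbours of the cluster were taken from the side before S100a1 only, with none beyond S100a9 or beside the second block. Of these 13 genes, 13 were tested and 0 were called in limma. At an unadjusted p under 0.05, 1 was lower and 0 higher, beside 739 and 452 of all 11343 tested genes. The 13 neighbours had a median log2(FPKM + 1) difference of -0.12. Ilf2, a double-stranded RNA binding protein and the highest of them, was at 27.9 and 23.7 FPKM in control testes and 21.9 and 22.8 FPKM after hemicastration.

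**Figure D3:**
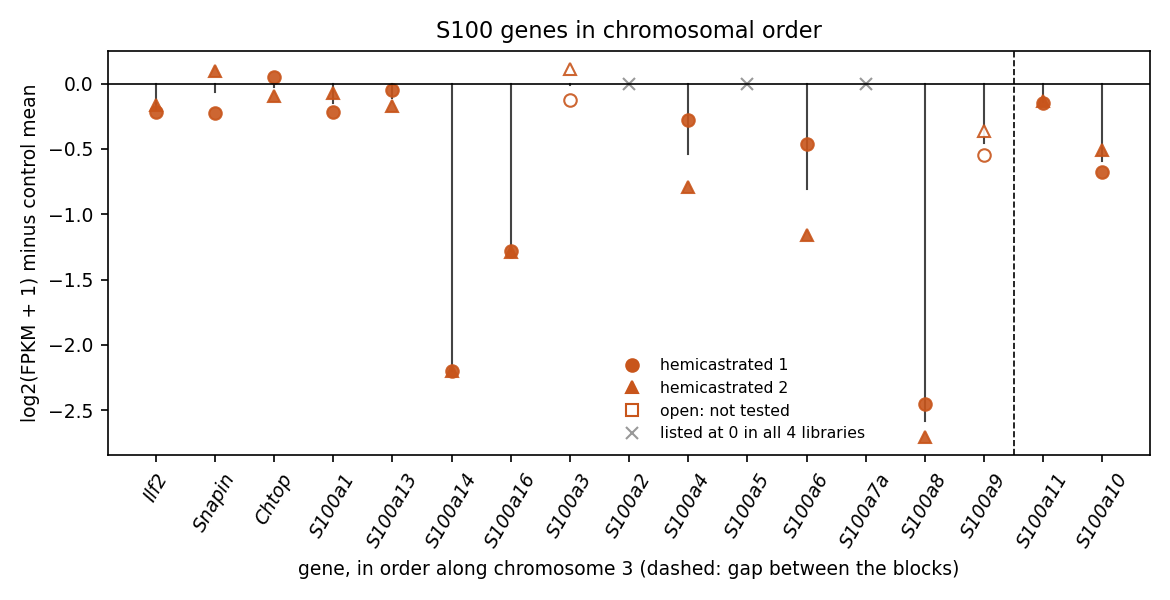
Each hemicastrated library minus the control mean, in log2(FPKM + 1), for genes on chromosome 3. The 3 genes before S100a1 and the 14 S100 genes of the table are in chromosomal order, with no distances to scale. Vertical lines end at the group difference, open symbols are untested genes, crosses are genes listed at 0, and the differences of S100a14, S100a16 and S100a8 (-2.20, -1.28 and -2.58) are the lowest plotted, with S100a6, S100a10 and S100a4 between -0.81 and -0.54.

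Upstream sequence is shown for a called gene with its whole 250-base window, for S100a8, and for the uncalled neighbours S100a1 and S100a13, which point away from each other across a gap of 42 bases. The sequences are from RefSeq (GRCm38.p6), which held starts for 8 of the 10 members; S100a10 and S100a14 had no entry. Each ends at the base before the first annotated start of the gene, so the S100a8 stretch is shorter. Lower case is used throughout, since none of the motifs searched falls in these stretches.
S100a16, plus strand, chr3:90537004-90537253: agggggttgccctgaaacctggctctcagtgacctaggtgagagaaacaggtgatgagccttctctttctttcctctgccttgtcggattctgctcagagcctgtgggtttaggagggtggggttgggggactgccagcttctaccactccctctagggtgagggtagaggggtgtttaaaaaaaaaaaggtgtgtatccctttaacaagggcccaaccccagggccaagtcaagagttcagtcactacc
S100a8, plus strand, chr3:90668821-90668977: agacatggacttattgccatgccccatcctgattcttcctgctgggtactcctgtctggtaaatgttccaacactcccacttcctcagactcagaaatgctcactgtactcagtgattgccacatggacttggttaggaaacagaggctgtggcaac
S100a1 and S100a13 gap, plus strand, chr3:90514393-90514434: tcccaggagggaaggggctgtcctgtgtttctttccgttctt

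Motifs were searched as letters on both strands of the full windows, from 250 bases before to 50 bases after each RefSeq start. TATAAA, found in 13.6% of the 32851 promoter windows of the table, was in the windows of S100a4, S100a8 and S100a9. GGGCGG (35.7% of all windows) was in those of S100a9, S100a11 and the second start of S100a16, with 3 matches in S100a11. CCAAT (37.4%) was in that of S100a6, and TGANTCA (7.81%) in those of S100a11, with 2 matches, and the second start of S100a16. None of these motifs contains another. The windows of S100a1, S100a13 and the first start of S100a16 held none of the 4. The called genes S100a8 and S100a16 shared no motif among those searched. A match in letters is a description of the sequence.

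The S100 genes outside the list were at low levels. Of 9 further names, 8 were in the table and S100a7l2 was not analysed here. S100b, known from glia and fat, was at 0.502 and 0.187 FPKM in control testes and 0.296 and 0.261 FPKM after hemicastration. S100z was listed at 0 in control 1 and hemicastrated 2 and was at 0.522 and 1.21 FPKM in the other libraries. S100g was listed at 0 throughout. S100pbp, which encodes an S100-binding protein and is no family member, was at 6.87 and 7.54 FPKM against 5.997 and 6.253 and was the one gene of these tested (log2(FPKM + 1) difference of -0.20, limma adjusted p = 0.628).

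None of the tested binding partners of S100 proteins was called. Of 25 genes written as partners, receptors or targets, 16 were tested and 0 were called in either direction by limma. At an unadjusted p under 0.05, 5 were lower and 0 higher, beside 739 and 452 of all 11343 tested genes. Of the tested partners, 11 had negative differences, and the median was -0.11. Leaving out either hemicastrated library gave 1 gene called lower, and the replicate number as a block gave 2. Besides Anxa1 and Anxa2, the smallest p-values belonged to Tpm1, Anxa5 and Anxa6. The tropomyosin gene Tpm1, an actin filament protein, was at 16.01 and 23.2 FPKM in control testes and 7.34 and 9.90 FPKM after hemicastration (log2(FPKM + 1) difference -1.09, limma adjusted p = 0.0949). Anxa5 was at 13.6 and 12.2 FPKM against 9.61 and 8.32, and Anxa6 at 4.35 and 3.81 FPKM against 2.69 and 2.76. These 5 genes, picked by their small p, were all lower in both hemicastrated testes than in both controls. Over all 25 partner genes, tested or not, 9 had this order, 2 had the opposite order and 14 overlapped. Among all tested genes the 2 orders were seen in 24.8% and 16.3%. The receptor genes Ager and Tlr4, whose products bind released S100 proteins, stayed at or under 0.131 FPKM in every library, whereas the receptor gene Cd36 was at 13.9 and 8.19 FPKM in control testes and 7.53 and 10.7 FPKM after hemicastration.

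Other EF-hand genes were centred on 0. Of 33 such genes outside the S100 family, 29 were tested, with 1 called lower and 0 higher, beside 1.19% and 0.106% of all tested genes. The gene called lower had a hemicastrated mean under 1 FPKM and passed the filter through its control values, so this count cannot serve as support. Of the 29 differences, 14 were negative and 15 positive, and the median was 0.001. The called gene was Capn1, a calcium-dependent protease subunit, at 1.88 and 1.95 FPKM in control testes and 0.428 and 0.596 FPKM after hemicastration (log2(FPKM + 1) difference -0.95, limma adjusted p = 0.0436). It was not called when any 1 of the 4 libraries was left out, with a pseudocount of 0.1, with no filter or after quantile normalization. Sri (sorcin) was at 6.38 and 6.58 FPKM against 3.69 and 4.19, and the reticulocalbin Rcn1 at 5.14 and 3.22 FPKM against 1.62 and 2.40. Calm3, 1 of the calmodulin genes, was at 122 and 128 FPKM in control testes and 161 and 144 FPKM after hemicastration, and the centrin Cetn3 at 55.3 and 61.7 FPKM against 74.2 and 72.3. The last 4 genes were not called.

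Genes with the library pattern most like that of the called members were taken by the smallest Euclidean distance between mean-centred log2(FPKM + 1) values over the 4 libraries. For S100a8 they were Glb1l2 (distance 0.084), Inmt (0.141) and Cwh43 (0.191). For S100a14 they were the keratin gene Krt19 (0.193), B2m (0.252), which encodes the light chain of MHC class I, and the ion transport regulator Fxyd4 (0.256). For S100a16 they were Got2 (0.026), Slc38a4 (0.060) and Fxyd3 (0.079). Krt19 was at 3.01 and 3.86 FPKM in control testes, listed at 0 in hemicastrated 1 and at 0.0375 FPKM in hemicastrated 2, close to S100a14 in each library. With 4 libraries such closeness is a description.

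The summed levels of epithelium, epididymis, smooth muscle, fibroblast, macrophage, and glia and fat markers were lower in both hemicastrated testes than in both controls. The S100 sum was too, and single genes weighed heavily in some of these sums. Of 13 simple epithelium markers, 12 were lower in both hemicastrated testes than in both controls. Of the 8 tested, 3 were called lower and 0 higher, all 3 with a hemicastrated mean under 1 FPKM, so they passed the filter through their control values and their count cannot serve as support: Krt19, Krt18 (2.63 and 2.51 FPKM against 0.124 and 0.258) and Krt8 (2.02 and 2.06 FPKM against 0.494 and 0.560). The summed level of the list was 108 and 105 FPKM in control testes and 78.4 and 80.7 FPKM after hemicastration, and Krt7 was listed at 0 in both hemicastrated testes. Without control 2, 1 of these markers was called. Of 13 epididymis markers, 3 were tested and 2 called lower, both of which likewise passed the filter through their control values, and the sum was 567 and 810 FPKM in control testes against 2.17 and 2.72 FPKM. Crisp1 and Adam7 made up nearly all of it. The other 11 epididymis genes summed to 4.00 and 2.65 FPKM in control testes and 2.12 and 2.68 FPKM after hemicastration. Among them, Crisp4 was untested, at 0.492 and 0.781 FPKM in control testes and listed at 0 in both hemicastrated testes. Lcn5 and Lcn8 were listed at 0 in all 4 libraries. Of the 13 epididymis markers, 3 were lower in both hemicastrated testes than in both controls, 0 were higher and 10 overlapped.

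Of 10 smooth muscle markers, 9 were tested and 5 called lower, of which Cnn1 passed the filter through its control values, with sums of 352 and 312 FPKM against 232 and 261. That count was 2 without control 1, 3 without control 2 and 3 with no filter. Of 10 fibroblast and matrix markers, 8 were tested and 0 called in limma, or 3 with the replicate number as a block. At an unadjusted p under 0.05, 5 were lower and 0 higher, beside 739 and 452 of all 11343 tested genes. The sums of the fibroblast and matrix list were 69.7 and 52.7 FPKM against 39.7 and 26.6. The part of these cell types in the S100 values was not tested.

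Among markers of the other cell types limma called 0 genes, and sums are given here for controls against hemicastrated testes. The 7 tested macrophage markers belonged to a list of 11 that summed to 61.9 and 58.7 FPKM against 54.2 and 46.0. The 3 tested endothelium markers came from a list of 8 with sums of 14.9 and 12.3 FPKM against 12.5 and 12.3. The erythroid list had 3 tested genes and sums of 40.2 and 35.9 FPKM against 36.5 and 25.4, with hemicastrated 2 lowest, as for S100a6 and S100a4. For glia and fat, 3 of 8 genes were tested and the sums were 17.8 and 13.6 FPKM against 9.34 and 10.4. The 7 Leydig markers summed to 1646 and 1544 FPKM against 1920 and 1813, the 10 Sertoli markers to 449 and 470 FPKM against 559 and 522, and the 8 germ cell markers to 18100 and 19640 FPKM against 20800 and 20710. At an unadjusted p under 0.05 limma had 1 lower gene each among macrophage, glia and fat, and Leydig markers. It had 2 higher Leydig, 2 higher Sertoli and 3 higher germ cell genes, and none in the endothelium and erythroid lists. Over all 11343 tested genes, 739 were lower and 452 higher at that level. With the replicate number as a block, 2 Sertoli genes were called higher and 1 glia and fat gene lower. A glia and fat count of 1 lower was also found with a pseudocount of 0.1 and without control 2, and 1 erythroid gene was called lower without hemicastrated 1. The macrophage and the glia and fat sums were lower in both hemicastrated testes than in both controls, as for the S100 sum. The Leydig, Sertoli and germ cell sums were higher. Lyz2 was the highest macrophage gene, at 28.5 and 29.0 FPKM against 21.1 and 20.8. Insl3 made up most of the Leydig sum, at 1272 and 1232 FPKM against 1609 and 1484. In the Sertoli list, Cst9 was at 62.8 and 76.75 FPKM against 110.5 and 111.5, and Cst12 at 56.3 and 74.45 against 107.2 and 109.2. Of the tested differences, 4 macrophage were negative and 3 positive, 4 Leydig negative and 3 positive, and 2 Sertoli negative and 5 positive.

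**Figure D4:**
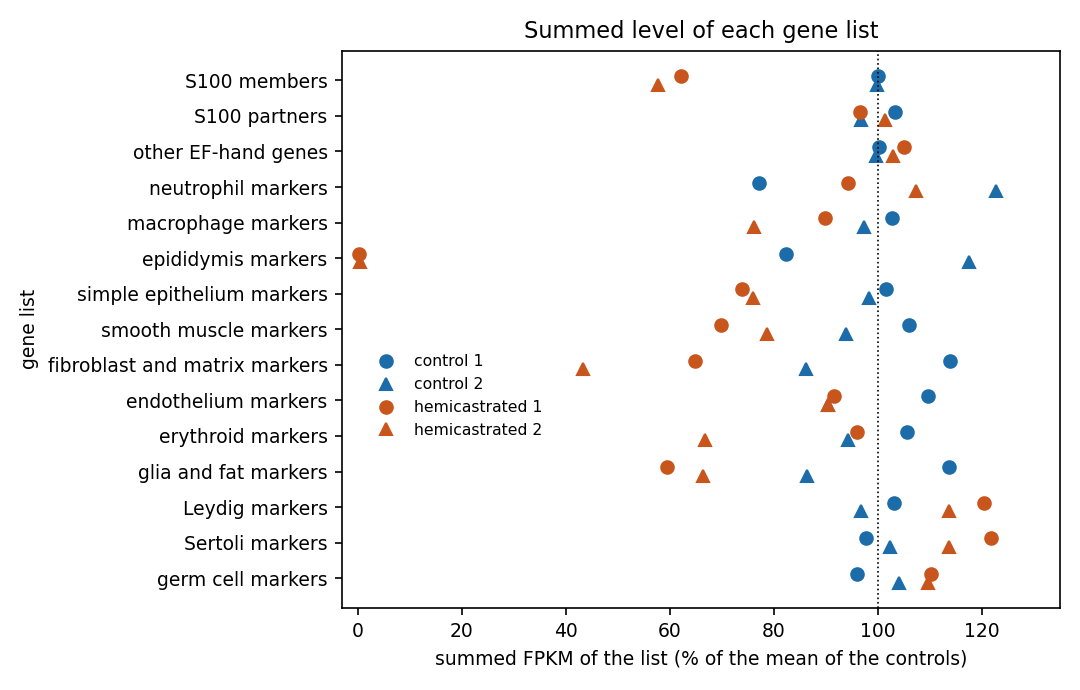
Summed FPKM of each gene list in each library as a percentage of the mean of the controls, with circles and triangles for libraries 1 and 2, blue for control and orange for hemicastrated. The S100, macrophage, epididymis, simple epithelium, smooth muscle, fibroblast, and glia and fat lists lie to the left of both controls in both hemicastrated testes, the Leydig, Sertoli and germ cell lists lie to the right, and the other EF-hand genes stay near 100%.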

How the data were processed

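Per the labels' protocols, poly(A) RNA of the right testis was made into paired-end Illumina libraries. No strand-marking step is described, so a gene and an antisense partner could not be separated. TopHat2 2.0.11, Cufflinks 2.2.1 and GRCm38 appear in the submitters' processing notes. The values are FPKM as deposited by the authors, 1 per gene and library, and the sources used here do not give the annotation behind them. An exact 0 can be a failed estimate and is written as listed at 0.

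GENCODE M21 (GRCm38) named 21806 of the 22073 genes and gave positions. Genes averaging 1 FPKM or more were compared in limma 3.58.1 (R 4.3.3) on log2(FPKM + 1) with a variance trend, two-sided, adjusted by Benjamini-Hochberg over 11343 genes. The function was tested on simulated data. The extraction protocol speaks of 4 individuals, taken here as 4 mice. The members and gene lists were chosen with earlier results of these data known. Named genes are all members and, per list, called genes, those with the smallest p (partners and EF-hand genes) or the highest mean. Shared sequence was counted in 31-base words of GENCODE transcripts. Alternatives were the pseudocount, the filter, TPM, quantile normalization, no trend, each library left out, and a replicate block.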

Additional observations from a re-analysis of the deposited data

How the results depend on the processing

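S100a8 and S100a14 were called under every alternative that tested them, and S100a16 under all but the 2 that left out a control. With a mean of at least 5 FPKM, these 3 genes are not tested and 0 members were called. The count of called members was 2 to 4 with 1 library left out, and none was called higher. The median of the 9 tested members was -0.87 with a pseudocount of 0.1, -0.77 in TPM and -0.79 to -0.46 with 1 library left out. The log2(FPKM + 1) difference of S100a11 ran from -0.30 to 0.013 and that of S100a13 from -0.41 to 0.19 with 1 library left out. Over all genes, 63 were called lower and 7 higher with a mean of at least 5 FPKM, 3 higher with no filter, and 78 to 156 lower and 0 to 26 higher with 1 library left out. At an unadjusted p under 0.05 there were 1000 genes without control 2, where 0 were called higher by limma. Titles share replicate numbers, but no label pairs the mice: deviations of same-numbered libraries had a correlation of 0.014 over 11343 genes. With the replicate block, 3 members were called lower and 30 genes higher. FPKM carry no depth, so no counting limit is given.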
